A study of Mus musculus with 59 samples.

Results

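Juvenile exposure to fluoxetine was compared with vehicle in the prefrontal cortex of mice of both genotypes together. The comparison set all 19 fluoxetine libraries of the series against all 20 vehicle libraries, 39 of 59 libraries in all, with genotype and sex as blocks. Each result is given with all 39 libraries and with 37, leaving out het fluoxetine male replicates 3 and 4. These stood apart from the other libraries on the second principal component. Genes that changed with the same sign in both genotypes are described in most detail.

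The mice were C57BL/6J, either heterozygous for the I48X allele of Dyrk1a (Dyrk1a+/I48X, here "het") or wild type. The drug reached the pups through the milk of the dam from postnatal day 3 to day 24, for 3 weeks, and prefrontal cortex was taken for RNA sequencing on day 25. The fluoxetine mice were 10 het mice (5 female, 5 male) and 9 wild-type mice (5 female, 4 male). The vehicle mice were 10 het and 10 wild-type mice, with 5 of each sex in each genotype. The labels name no litters. As dosing was through the dam, litter and treatment cannot be told apart, and the p-values speak only of the spread among the mice sampled. Levels are normalised counts, in which a library's counts are divided by its size factor; they are not scaled by gene length, so levels are not compared between genes. Changes are log2 fold changes of fluoxetine over vehicle of the value plus 1, and ± gives their standard error. A gene is called at a limma p of at most 0.05 after Benjamini-Hochberg adjustment over all genes tested.

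Fluoxetine blocks the transporter that returns serotonin to the nerve terminal, so extracellular serotonin rises. Immediate early genes are transcription factors and effectors that neurons switch on within minutes of synaptic activity, largely through calcium, cAMP and MAP kinase signals acting on CREB and serum response factor. Cholesterol in the brain is made locally, mainly by glia after birth, and its enzymes are controlled by the transcription factor SREBP2, which is released when sterol falls in the endoplasmic reticulum. Glucocorticoids act through the receptor encoded by Nr3c1, and Fkbp5 and Zbtb16 are among its induced genes.

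Promoter stretches of 3 genes described below, from these groups, show the kind of element through which such signals act on transcription. Sequences and coordinates are from RefSeq on GRCm38.p6, and capitals mark the element. The Dusp1 stretch, at chr17:26508582-26508641 on the minus strand, holds the cAMP response element TGACGTCA. The Egr2 stretch, at chr10:67537468-67537529 on the plus strand, holds a CArG box, the element of serum response factor. The Hmgcs1 stretch, at chr13:119690188-119690248 on the plus strand, holds the sterol element TCACNCCAC.
Dusp1: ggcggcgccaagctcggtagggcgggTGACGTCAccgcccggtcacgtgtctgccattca
Egr2: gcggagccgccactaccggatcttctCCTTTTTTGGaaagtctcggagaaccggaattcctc
Hmgcs1: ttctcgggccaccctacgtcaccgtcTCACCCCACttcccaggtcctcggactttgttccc
Both strands of the 250 bases before each gene's start were searched for each motif by itself, and none of the printed elements overlaps another of the 4 motifs. The cAMP element stood in 3 of 27 immediate early genes with a promoter in the table (Btg2, Maff and Dusp1), which is 11.1%, and in 2.85% of 12636 tested genes. The CArG box stood in Egr2 alone of these 27 (3.7%), against 1.45% of tested genes. The sterol element stood in Hmgcs1 alone of 17 cholesterol genes (5.88%), against 1.21% of tested genes. The glucocorticoid element, GNACA and TGTNC on either side of 3 bases of any kind, stood in Sgk1, Mt1 and Map3k6, 3 of 21 glucocorticoid responsive genes (14.3%), against 0.348% of tested genes. A match is a description of these letters and not of a bound site.

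The targeted gene, Dyrk1a, which encodes a kinase, lies on chromosome 16 from 94570010 to 94695517 on GRCm38, the build of all gene coordinates given here. Its level ran from 2182 to 4214 with a median of 2348 normalised counts in het fluoxetine mice, and from 2240 to 2415 with a median of 2299 in het vehicle mice. In wild-type mice it ran from 2066 to 2272 with a median of 2155 under fluoxetine, and from 2163 to 2327 with a median of 2221 under vehicle. The groups overlapped, and the values of 4214 and 3278 were those of het fluoxetine male replicates 3 and 4. Dyrk1a was not called, with a change of 0.05 ± 0.05 over 39 libraries (limma adjusted p = 0.698) and -0.03 ± 0.02 over 37 (limma adjusted p = 0.461). Gene-level values sum both alleles and so do not check the genotype labels.

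Libraries held 24391022 to 32464242 counts, and replicates of 1 group differed by more than sampling noise, with a chi-square per gene of 3.079 to 83.82 over 76 pairs. Of 26 markers of cortical layers, none was at 0 in any library and none was called. They summed to 71194 to 97127 normalised counts in fluoxetine mice and 56479 to 95189 in vehicle mice. Levels above 0 cannot show that a library held prefrontal cortex alone. The first principal component, with 23.1% of the variance, was highest in het vehicle male replicates 3 and 4, at 65 and 58.83. It was lowest in het fluoxetine male replicate 3 and wild-type vehicle male replicate 2, at -43.83 and -38.07. The second, with 14.9% of the variance, placed het fluoxetine male replicates 3 and 4 at 100.13 and 60.04. The other 37 libraries lay between -17.12 and 17.58 on it. A list of 15 olfactory bulb markers, a neighbouring tissue, differed between libraries and summed to 7121 to 41237 normalised counts in fluoxetine mice and 5527 to 59664 in vehicle mice. Its mean log2 deviation was 0.11 ± 1.21 in het fluoxetine mice (SD, n = 10) and 0.45 ± 1.47 in het vehicle mice (SD, n = 10). In wild-type mice it was 0.68 ± 0.40 under fluoxetine (SD, n = 9) and -1.17 ± 1.53 under vehicle (SD, n = 10). Of these markers 0 were called in either fit, with a median change of 0.76 over 39 libraries and 0.90 over 37, and 1 marker was at 0 in some library. Array weights called all 15 of them higher in both fits, with a median of 1.40 over 39 libraries and 1.44 over 37. Of all genes, array weights called 2393 higher with 39 libraries and 2432 with 37. Without the 6 het vehicle mice numbered 3 to 5, described below, 1 marker was called higher with the other libraries. When the 2 males were also left out, 13 markers were. Of all genes, 375 and 969 were called higher in these 2 fits. The part of this list in the other results was not tested beyond the fits with its mean as a covariate.

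Pooled over genotypes, few genes were called, and more of them lower than higher in fluoxetine mice. With 39 libraries, 169 of 17754 genes tested were called (0.952%), 73 higher and 96 lower. With 37 libraries, 323 of 17692 were called (1.83%), 127 higher and 196 lower. The calls shared by both fits were 151 genes (0.853%), 68 higher and 83 lower, which is 89.3% of the calls with 39 libraries and 46.7% of those with 37. The effect had the same sign in het and in wild-type mice for all 151, whereas 47.6% of all genes tested had the same sign with 39 libraries and 45.2% with 37. A pooled test favours genes that move alike in both genotypes, so this share is a property of the selection and not a separate result. Without wild-type fluoxetine male replicate 4 the 39-library count was 105, and without het vehicle male replicate 2 it was 106. With the olfactory bulb covariate and 39 libraries the balance turned, to 954 higher and 876 lower, and with 37 it was 413 higher and 536 lower. The median change of all genes tested was 0.003 with 39 libraries and -0.001 with 37.

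**Figure D1:**
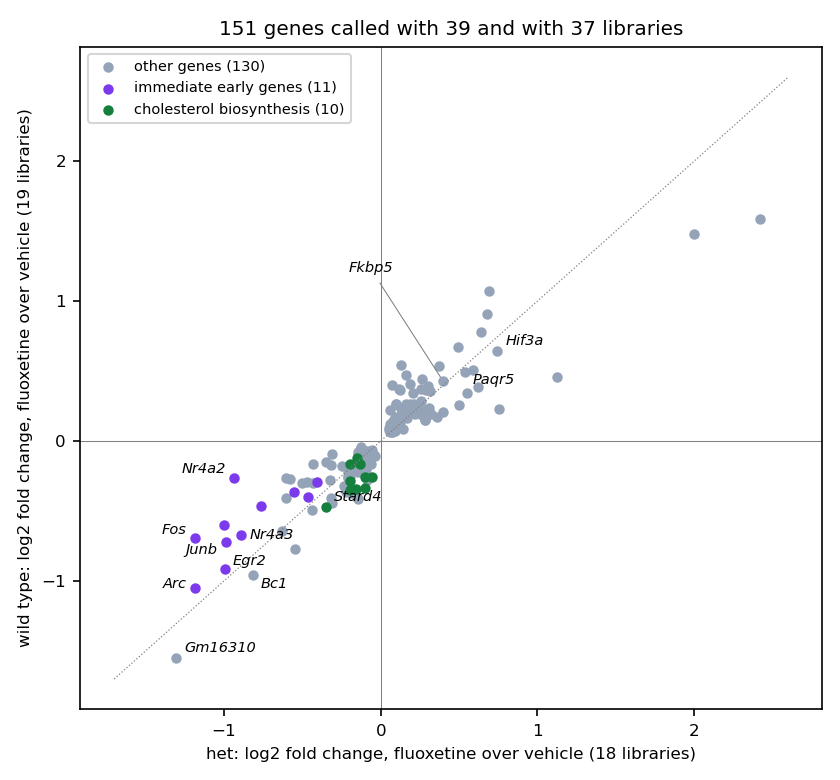
Fluoxetine effect in wild-type mice (vertical axis, 19 libraries) against the effect in het mice (horizontal axis, 18 libraries, without male replicates 3 and 4), as log2 fold changes of fluoxetine over vehicle, for the 151 genes called in both pooled fits. The dotted line marks equal effects; all points lie in the lower left or upper right part, the 11 immediate early genes and 10 cholesterol genes at the lower left.

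In both pooled fits, the immediate early genes that were called were lower in fluoxetine mice. Of 34 tested, 12 were called lower and 0 higher with 39 libraries, where 0.541% of all genes were called lower, and 18 lower and 0 higher with 37, where 1.11% were. The median change of the list was -0.34 with 39 libraries and -0.43 with 37, and with 37 it was -0.51 in het and -0.27 in wild-type mice. In both genotypes 23 of the 34 were lower and 4 higher with 39 libraries, and 25 lower and 1 higher with 37. Of all genes, 4272 of 17754 were lower and 4181 higher in both with 39 libraries, and 4010 and 3976 of 17692 with 37. When each genotype had to pass on its own, 0 members were called with 39 libraries and Per1, Nr4a3, Arc and Klf10 with 37. In bulk tissue, fewer cells of a type and less RNA per cell cannot be told apart.

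Arc (chromosome 15, 74669083 to 74672570), whose product acts at dendrites and promotes removal of AMPA receptors, had the largest change of the list. In fluoxetine mice its lowest, median and highest levels were 1120, 1795 and 3322 normalised counts, against 2025, 4094 and 6071 in vehicle mice. The groups overlapped, yet all 19 fluoxetine mice lay below the mean of their vehicle group, which in het mice includes high levels described below. Its change was -1.06 ± 0.15 with 39 libraries (limma adjusted p = 4.12e-05) and -1.11 ± 0.16 with 37 (limma adjusted p = 2.37e-05). With 37 libraries the change was -1.18 ± 0.22 in het mice and -1.05 ± 0.21 in wild-type mice.

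The orphan nuclear receptor gene Nr4a3 (chromosome 4, 48045153 to 48086447) had 365.4, 668.6 and 803 normalised counts in het fluoxetine mice (lowest, median, highest), against 955.7, 1335 and 1758 in het vehicle mice. In wild-type mice it had 509, 742.5 and 1075 under fluoxetine, against 883.8, 1121 and 1518 under vehicle. The het groups did not overlap, as for 0.0282% of genes with 39 libraries and 0.062% with 37, and the wild-type groups did. The pooled change was -0.88 ± 0.11 with 39 libraries (limma adjusted p = 3.61e-06) and -0.78 ± 0.09 with 37 (limma adjusted p = 1.32e-06).

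Fos, a component of the AP-1 transcription factor, had 302.7, 590.9 and 905.6 normalised counts in fluoxetine mice (lowest, median, highest), against 528.5, 896.6 and 2395 in vehicle mice. The ranges overlapped, with all 19 fluoxetine mice below their vehicle mean, which in het mice includes high levels described below. Its change was -0.92 ± 0.17 with 39 libraries (limma adjusted p = 0.00203) and -0.92 ± 0.18 with 37 (limma adjusted p = 0.00229). Its partner Junb changed by -0.79 ± 0.12 and -0.85 ± 0.11 in the same fits (limma adjusted p = 6.25e-05 and 1.52e-05).

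Egr2, a zinc finger transcription factor with the CArG box printed above, had 82.4, 154 and 322 normalised counts in fluoxetine mice, against 184, 334 and 509 in vehicle mice (lowest, median, highest). It fell by 1.04 ± 0.16 with 39 libraries (limma adjusted p = 8.51e-05) and by 0.95 ± 0.15 with 37 (limma adjusted p = 0.000227). The other nuclear receptor genes of the family were also called: Nr4a1 at -0.81 ± 0.12 and Nr4a2 at -0.63 ± 0.14 with 39 libraries. Of the other zinc finger factors, Egr1 was at -0.51 ± 0.10 and Egr4 at -0.51 ± 0.08 with 39 libraries, both called in both fits.

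Per1 (chromosome 11, 69095217 to 69109960), a clock gene that is also induced by activity and by glucocorticoids, differed between both fits. It had 1840, 2216 and 4010 normalised counts in het fluoxetine mice (lowest, median, highest), against 2476, 2898 and 3319 in het vehicle mice, and in wild-type mice 2118, 2202 and 2586 under fluoxetine, against 2356, 2756 and 3090 under vehicle. The values of 4010 and 2688 were those of het fluoxetine male replicates 3 and 4. Without them the het groups did not overlap, as for 0.062% of genes tested. The change was -0.29 ± 0.06 with 39 libraries (limma adjusted p = 0.0047) and -0.35 ± 0.04 with 37 (limma adjusted p = 9.15e-07). Gadd45b, a DNA damage and activity induced gene, was at 3073 and 565.3 in these 2 males and from 208 to 293 in the other 17 fluoxetine mice, against 266 to 430 in vehicle mice. It was not called with 39 libraries (-0.18 ± 0.19, limma adjusted p = 0.67) and was called with 37 (-0.43 ± 0.05, limma adjusted p = 3.42e-06). Klf10, Egr3, Csrnp1, Ier2, Ccn1 and Fosb likewise were called lower only with 37 libraries, and Fosl2 only with 39.

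The immediate early gene level was not even within het vehicle mice. The list mean, as a log2 deviation, ran from 0.34 to 0.56 in the het vehicle mice numbered 3 to 5 of both sexes and from -0.16 to 0.02 in those numbered 1 and 2. Arc ran from 5034 to 6071 normalised counts in the 6 and from 2025 to 3119 in the 4. In het fluoxetine mice it ran from 1306 to 3049. Fos ran from 1299 to 2395 in the 6, from 660.3 to 815.8 in the 4 and from 326.6 to 905.6 in het fluoxetine mice. For both genes the het fluoxetine mice overlapped the 4. Without these 6 mice, 11 of 34 genes were called lower with the remaining libraries and 17 when the 2 fluoxetine males were also left out, and the median was -0.20 and -0.27. Of all genes, 459 and 1073 were called lower in these 2 fits, against 96 and 196 with the 6 mice kept. With 39 libraries less these 6, Dusp1, Nr4a2 and Fosl2 were no longer called (limma adjusted p = 0.0535, 0.113 and 0.124, each the highest over that gene's alternatives, which began at 0.000183, 0.000476 and 1.38e-06). With the olfactory bulb level as a covariate, 19 were called lower and 1 higher with 39 libraries, and 23 lower and 0 higher with 37. Of all genes, that covariate called 876 lower and 954 higher with 39 libraries, and 536 lower and 413 higher with 37.

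**Figure D2:**
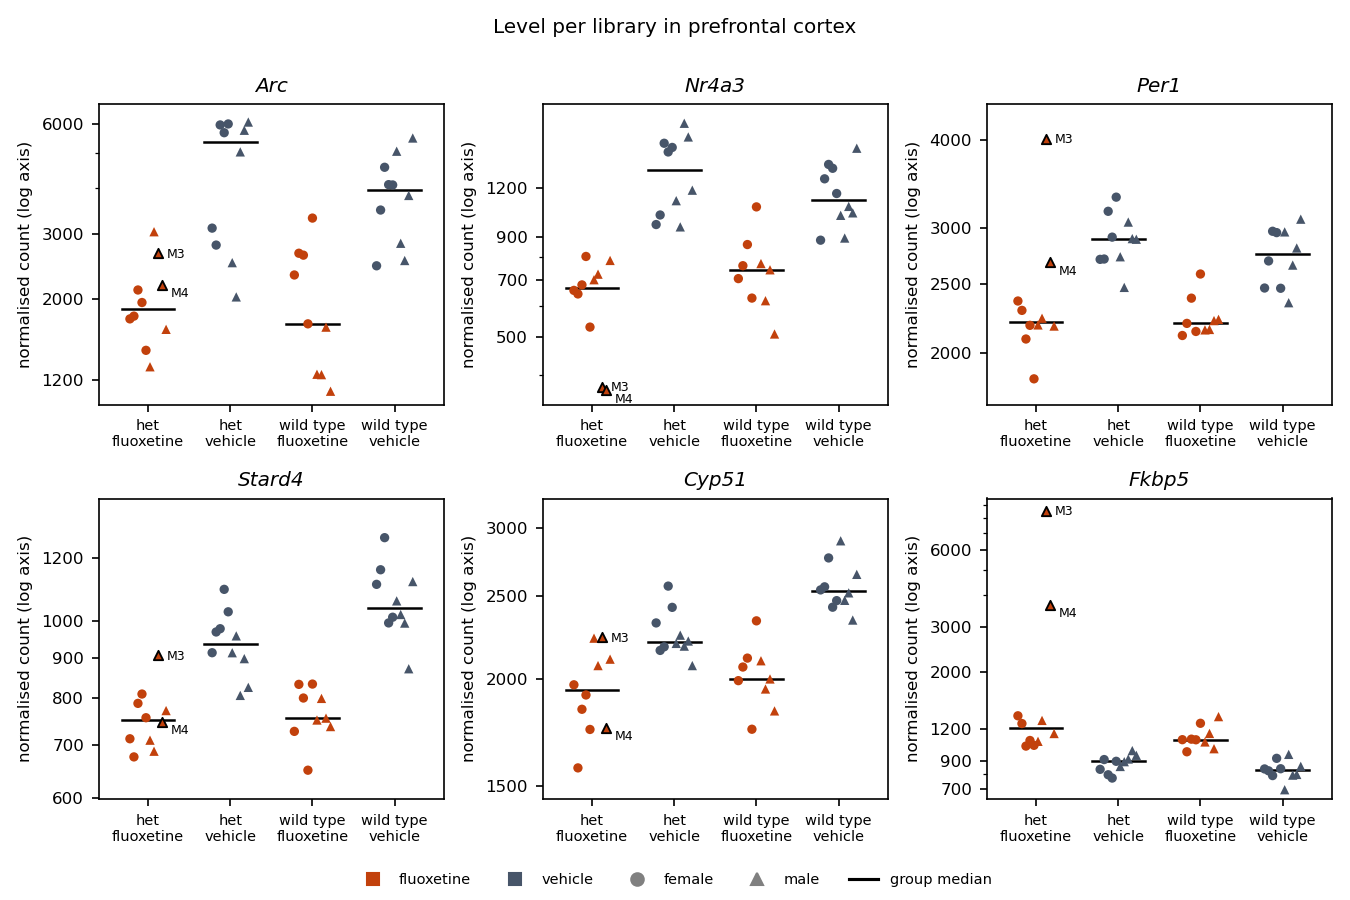
Normalised count of 6 genes per library on a log axis, for het fluoxetine, het vehicle, wild-type fluoxetine and wild-type vehicle mice; circles are females, triangles males, bars group medians, and M3 and M4 mark het fluoxetine male replicates 3 and 4. Arc, Nr4a3, Per1, Stard4 and Cyp51 lie lower and Fkbp5 higher in most fluoxetine mice of both genotypes, with M3 and M4 far above for Fkbp5.

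Of 16 listed feedback regulators of MAP kinase signalling, 3 were called lower and 0 higher in both fits, where 0.541% of all genes were called lower with 39 libraries and 1.11% with 37, with a list median of -0.08 with 39 libraries and -0.09 with 37. The 3 were Dusp1 and Dusp6, which encode phosphatases that inactivate MAP kinases, and Spry4, which encodes an inhibitor of receptor tyrosine kinase signalling. Dusp6 had 1018, 1502 and 1930 normalised counts in fluoxetine mice (lowest, median, highest), against 1526, 1979 and 2634 in vehicle mice. It changed by -0.42 ± 0.07 with 39 libraries (limma adjusted p = 0.000229) and by -0.39 ± 0.07 with 37 (limma adjusted p = 0.000308). Spry4 changed by -0.27 ± 0.05 with 39 libraries (limma adjusted p = 0.00127). Dusp1, which also belongs to the immediate early list, changed by -0.56 ± 0.11 (limma adjusted p = 0.00465). With the olfactory bulb covariate 5 were called lower and 0 higher with 39 libraries, and 5 lower and 1 higher with 37. Of all genes, that covariate called 876 lower and 954 higher with 39 libraries, and 536 lower and 413 higher with 37.

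The genes of cholesterol synthesis and its control that were called in both pooled fits were lower in fluoxetine mice, by small amounts. Of 25 tested, 10 were called lower and 0 higher with 39 libraries, where 0.541% of all genes were called lower, and 18 lower and 0 higher with 37, where 1.11% were. The list median was -0.16 with 39 libraries and -0.18 with 37, and with 37 it was -0.13 in het and -0.25 in wild-type mice. In both genotypes 21 of the 25 were lower and 0 higher with 39 libraries, and 22 lower and 0 higher with 37. Of all genes, 4272 of 17754 were lower and 4181 higher in both with 39 libraries, and 4010 and 3976 of 17692 with 37.

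Stard4 (chromosome 18, 33199355 to 33213862), which encodes a sterol transfer protein, had the smallest adjusted p of all genes with 39 libraries and with 37. It had 675.5, 752.3 and 906.2 normalised counts in het fluoxetine mice (lowest, median, highest), against 807.1, 936 and 1097 in het vehicle mice. In wild-type mice it had 650, 755.7 and 834 under fluoxetine, against 871.8, 1041 and 1274 under vehicle. The wild-type groups did not overlap, as for 0.107% of genes tested, and the het groups overlapped slightly. The pooled change was -0.39 ± 0.04 with 39 libraries (limma adjusted p = 5.62e-07) and -0.42 ± 0.04 with 37 (limma adjusted p = 2.2e-08). With 39 libraries this call was kept in all 14 alternative fits and in all 39 fits without 1 library.

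Enzymes along the pathway were lower too. Cyp51 (chromosome 5, 4081145 to 4104746), the lanosterol demethylase, had 1748 to 2337 normalised counts in wild-type fluoxetine mice, against 2342 to 2896 in wild-type vehicle mice, without overlap. In het mice it had 1576 to 2236 under fluoxetine, against 2073 to 2565 under vehicle, with overlap. Its pooled change was -0.28 ± 0.04 with 39 libraries (limma adjusted p = 4.12e-05). Idi1, the isopentenyl diphosphate isomerase, and Fdps, the farnesyl diphosphate synthase, likewise had wild-type groups that did not overlap, and changed by -0.26 ± 0.05 and -0.22 ± 0.05 with 39 libraries. Wild-type groups did not overlap for 0.107% of genes tested.

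Hmgcs1, the synthase that supplies HMG-CoA and carries the sterol element printed above, had 6176, 8387 and 9564 normalised counts in fluoxetine mice (lowest, median, highest), against 6515, 9955 and 12728 in vehicle mice. The groups overlapped. It changed by -0.26 ± 0.05 with 39 libraries (limma adjusted p = 0.0066) and -0.26 ± 0.05 with 37 (limma adjusted p = 0.00229). Sqle, the squalene epoxidase, changed by -0.24 ± 0.03 with 39 libraries (limma adjusted p = 4.12e-05). Srebf2, the gene of SREBP2 itself, changed by -0.13 ± 0.03 (limma adjusted p = 0.00453), and Acat2, Mvk and Sc5d were the other members called in both fits.

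Insig1 (chromosome 5, 28071363 to 28078662), which encodes the protein that holds the SREBP complex in the endoplasmic reticulum, was called only with 37 libraries. Its value of 3720 normalised counts in het fluoxetine male replicate 3 compared with 1408 to 1988 in the fluoxetine mice left after removing both males, against 1721 to 2326 in vehicle mice. The change was -0.18 ± 0.07 with 39 libraries (limma adjusted p = 0.205) and -0.26 ± 0.03 with 37 (limma adjusted p = 6.48e-06). Hsd17b7, Fdft1, Mvd and Dhcr7 were among the others called only with 37.

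Without the 6 het vehicle mice of high immediate early genes, 12 cholesterol genes were called lower and 0 higher, and 20 lower and 0 higher without the 2 fluoxetine males as well. Of all genes, 459 and 1073 were called lower in these 2 fits, against 96 and 196 with the 6 mice kept. With the olfactory bulb covariate 10 were called lower and 1 higher with 39 libraries, and 14 lower and 0 higher with 37. The list median was then -0.12 and -0.13. Of all genes, that covariate called 876 lower and 954 higher with 39 libraries, and 536 lower and 413 higher with 37. Without it, 96 and 196 of all genes were called lower. Of 16 genes of fatty acid synthesis, which the related factor SREBP1 controls, 3 were called lower with 39 libraries (Acly, Acaca and Fasn) and 2 with 37 (Acly and Fasn), by 0.10 or less on the log2 scale. Of all genes 0.541% were called lower with 39 libraries and 1.11% with 37. With 39 libraries the count ran from 0 to 4 when 1 library was left out, being 0 without het fluoxetine female replicate 2, and it was 0 with quantile normalization and 8 with the olfactory bulb covariate. Acaca and Fasn each lost their call in 27 of those 39 fits and Acly in 17. Of 14 genes of sterol efflux and of 28 of the lysosome and phospholipid storage, 0 were called in either fit.

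**Figure D3:**
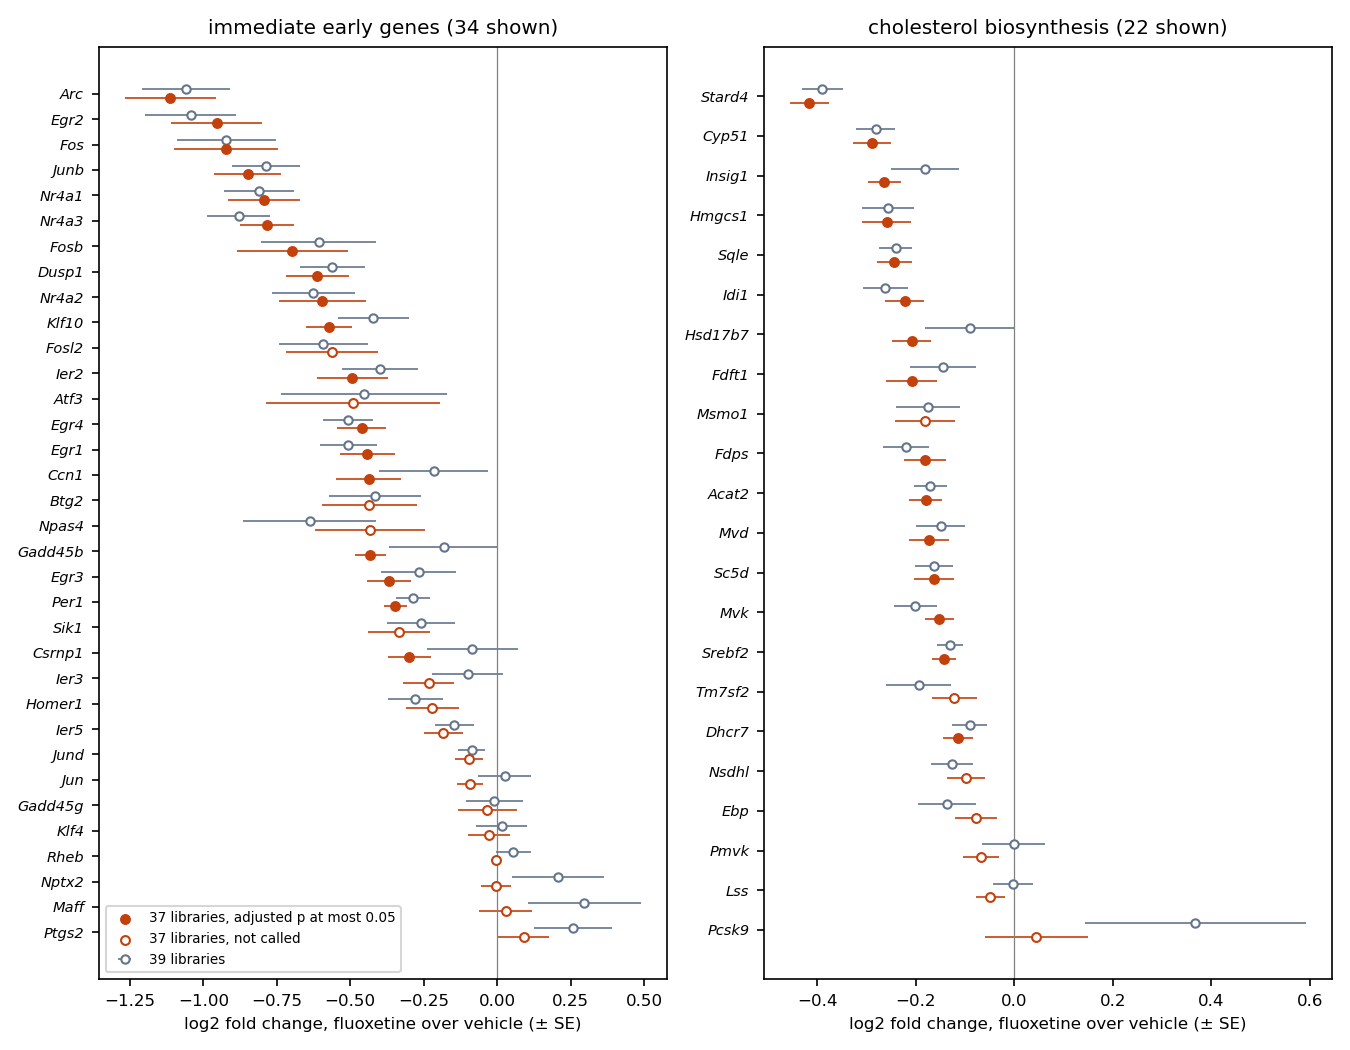
Pooled log2 fold change of fluoxetine over vehicle, with its standard error as a bar, for 34 immediate early genes and 22 of the 25 cholesterol genes; open grey circles are the fit with 39 libraries and orange circles the fit with 37, filled where called. With 37 libraries 18 of the immediate early genes and 15 of the cholesterol genes shown are called, all lower.

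The glucocorticoid responsive list moved both ways. Of 25 tested, 3 were called higher and 3 lower with 39 libraries, where 0.411% of all genes were called higher and 0.541% lower. With 37 libraries 4 were called higher and 3 lower, where 0.718% and 1.11% of all genes were. Its median was 0.17 with 39 libraries and 0.05 with 37. With the olfactory bulb covariate 7 were called higher and 3 lower with 39 libraries, and 6 higher and 4 lower with 37. Of all genes, that covariate called 954 higher and 876 lower with 39 libraries, and 413 higher and 536 lower with 37. The list mean of het fluoxetine male replicates 3 and 4 lay at 1.27 and 0.38 log2 units, above all other libraries, whose highest was 0.17.

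Fkbp5 (chromosome 17, 28399094 to 28517527), which encodes a co-chaperone that dampens the glucocorticoid receptor, was higher in every fluoxetine mouse than in every vehicle mouse of its genotype. It had 1030, 1207 and 8496 normalised counts in het fluoxetine mice (lowest, median, highest), against 772.9, 897 and 989.1 in het vehicle mice. In wild-type mice it had 978.7, 1090 and 1342 under fluoxetine, against 696, 831.8 and 956.1 under vehicle. It was the one gene whose groups did not overlap in either genotype, 0.00563% of the genes tested. The 2 deviating males, at 8496 and 3668, widened the spread: the change was 0.65 ± 0.16 with 39 libraries (limma adjusted p = 0.0328) and 0.41 ± 0.04 with 37 (limma adjusted p = 1.33e-07). With 39 libraries the call was lost without het vehicle female replicate 4, het vehicle male replicate 1 or het vehicle male replicate 2 (limma adjusted p = 0.0503, 0.0513 and 0.0525; range over all fits without 1 library 0.00124 to 0.0525). It was also lost without the 6 het vehicle mice numbered 3 to 5 (limma adjusted p = 0.0611, the highest over the 14 alternatives, which began at 1.33e-07).

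Hif3a (chromosome 7, 17031507 to 17062427), a hypoxia-inducible factor gene that glucocorticoids also induce, had 292, 372 and 589 normalised counts in fluoxetine mice, against 150, 256 and 314 in vehicle mice (lowest, median, highest). The wild-type groups did not overlap, as for 0.107% of genes tested. It rose by 0.67 ± 0.09 with 39 libraries (limma adjusted p = 4.12e-05) and by 0.71 ± 0.09 with 37 (limma adjusted p = 1.43e-05). Zbtb16, a zinc finger repressor, rose by 0.38 ± 0.08 with 39 libraries (limma adjusted p = 0.00745). Map3k6, a stress kinase gene, was called only with 37 libraries (0.40 ± 0.09, limma adjusted p = 0.0172).

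In the opposite direction, the receptor gene Nr3c1 had 1718, 2267 and 2878 normalised counts in fluoxetine mice, against 1854, 3030 and 3426 in vehicle mice (lowest, median, highest). The ranges overlapped widely. It changed by -0.33 ± 0.07 with 39 libraries (limma adjusted p = 0.00662) and -0.29 ± 0.07 with 37 (limma adjusted p = 0.0134). Arl4d, a small GTPase gene, changed by -0.47 ± 0.08 with 39 libraries (limma adjusted p = 0.000692), and Per1 is described above.

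When each genotype had to pass on its own with the same sign, few genes were called. With 39 libraries the test called Stard4 alone (0.00563%), at an adjusted p of 0.0492 in limma, and 299 genes had an unadjusted p under 0.05. With 37 libraries it called 11 genes (0.0622%), 3 higher (0.017%) and 8 lower (0.0452%): Fkbp5, Paqr5 and Hif3a higher, and Stard4, Stk40, Per1, Nr4a3, Insig1, Arc, Klf10 and Sox8 lower. By genotype, in the fit with 8 group means, 153 genes were called in het and 116 in wild-type mice with 39 libraries (0.862% and 0.653%). With 37 libraries 52 and 584 were (0.294% and 3.3%). The wild-type libraries were the same in both fits. A gene's variance was estimated over all groups together, so leaving out het libraries also changed the wild-type p-values. With 37 libraries the calls in het mice were 12 higher (0.0678%) and 40 lower (0.226%), and those in wild-type mice 344 higher (1.94%) and 240 lower (1.36%).

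Paqr5 (chromosome 9, 61953481 to 62026856), which encodes a membrane progestin receptor, had 96.4, 128 and 161 normalised counts in fluoxetine mice, against 62.6, 91.0 and 116 in vehicle mice (lowest, median, highest). All 19 fluoxetine mice lay above the mean of their vehicle group, although the ranges overlapped. The change was 0.52 ± 0.07 with 39 libraries (limma adjusted p = 8.93e-06), and with 37 it was 0.54 ± 0.10 in het and 0.49 ± 0.09 in wild-type mice.

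Sox8 (chromosome 17, 25565892 to 25570686), a transcription factor gene of the oligodendrocyte lineage, had 706, 842 and 1044 normalised counts in fluoxetine mice, against 888, 998 and 1209 in vehicle mice (lowest, median, highest). The ranges overlapped. It changed by -0.26 ± 0.04 with 39 libraries (limma adjusted p = 3.72e-05) and was the single called member of 16 oligodendrocyte precursor markers in both fits. Of all genes, 0.541% were called lower with 39 libraries and 1.11% with 37. Of 28 genes of myelinating oligodendrocytes, Pllp alone was called, lower with 39 libraries (-0.21 ± 0.05, limma adjusted p = 0.0471), a call lost in 28 of the 39 fits without 1 library, and 0 with 37. The median of that list was -0.15 with 39 libraries and -0.11 with 37, and with 37 libraries 19 of 28 were lower in both genotypes and 0 higher in both. Of all 17692 genes tested with 37 libraries, 4010 were lower and 3976 higher in both. Stk40 (chromosome 4, 126103957 to 126141029), a kinase-like gene, changed by -0.27 ± 0.03 with 37 libraries (limma adjusted p = 1.32e-06) and was not called with 39 (-0.18 ± 0.06, limma adjusted p = 0.139).

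Bc1 (chromosome 7, 144914470 to 144914637), a small non-coding RNA of rodent neurons that represses translation in dendrites, had 99.1, 229 and 423 normalised counts in fluoxetine mice, against 270, 429 and 569 in vehicle mice (lowest, median, highest). Its change was -0.94 ± 0.13 with 39 libraries (limma adjusted p = 4.12e-05) and -0.92 ± 0.14 with 37 (limma adjusted p = 8.58e-05). The ranges overlapped, but all 19 fluoxetine mice lay below their vehicle mean. Copies of this sequence are scattered over the genome as ID repeats, so its count is uncertain.

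The other large rises shared by both fits included genes of synaptic proteins. Sv2c, a synaptic vesicle glycoprotein, had 1216, 1497 and 3096 normalised counts in fluoxetine mice, against 666, 1166 and 1713 in vehicle mice (lowest, median, highest). It rose by 0.40 ± 0.09 with 39 libraries (limma adjusted p = 0.0228) and by 0.30 ± 0.07 with 37 (limma adjusted p = 0.0197), and was the single called member of 31 presynaptic release genes. Of all genes, 0.411% were called higher with 39 libraries and 0.718% with 37. With 37 libraries and the olfactory bulb covariate Sv2c was not called (limma adjusted p = 0.0552, the highest over its alternatives, which began at 0.000133). Lrfn2, a postsynaptic adhesion protein gene, rose by 0.31 ± 0.08 with 39 libraries (limma adjusted p = 0.0415), but 16 of the 39 fits without 1 library lost that call. Igsf11, an adhesion molecule of synapses, and Lrp8, a reelin receptor, both rose by 0.22 ± 0.04 with 39 libraries (limma adjusted p = 0.00337 and 0.0066). Ksr1, the scaffold of the MAP kinase cascade, rose by 0.26 ± 0.07 (limma adjusted p = 0.0471), a call lost in 30 of the 39 fits. Dzip1l, a ciliary protein gene, rose by 0.19 ± 0.03 (limma adjusted p = 0.00203). Wipf3, a WASP-interacting protein gene, rose by 0.27 ± 0.06 (limma adjusted p = 0.0103), and the other 3 of the largest rises, Dcaf15, Ccsap and Fibp, by 0.25 or less. Dcaf15, Ccsap and Fibp lost their calls in 8, 6 and 12 of the 39 fits without 1 library. Like Sv2c, the genes Ksr1, Dcaf15, Ccsap and Fibp were not called with 37 libraries and the olfactory bulb covariate. Of 39 postsynaptic genes and 23 of inhibitory synapses, 0 were called in either fit.

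Kdr, a receptor for vascular endothelial growth factor, was the single called member of 17 endothelial genes. It was called lower, as were 0.541% of all genes with 39 libraries and 1.11% with 37. It changed by -0.22 ± 0.06 with 39 libraries (limma adjusted p = 0.0456), a call lost in 29 of the 39 fits without 1 library, and by -0.24 ± 0.05 with 37 (limma adjusted p = 0.00678). The clock repressor gene Bhlhe40 changed by -0.20 ± 0.05 with 39 libraries (limma adjusted p = 0.0416), a call lost in 25 of those fits. With Per1 it was called in both fits among 19 clock genes, and Rora with 39 libraries only, a call lost in 17.

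Of all genes tested, 0.411% were called higher with 39 libraries and 0.718% with 37. Of 20 genes of the serotonin system tested, limma called 0 with 39 libraries and 1 higher with 37. That gene was Slc29a4, the plasma membrane monoamine transporter, with 403 to 665 normalised counts in the 17 fluoxetine mice (median 508), against 336 to 574 in vehicle mice (median 430). The ranges overlapped, and the change was 0.25 ± 0.06 (limma adjusted p = 0.0327). It was 0.36 ± 0.10 with 39 libraries (limma adjusted p = 0.0587).

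The receptor genes Htr1a (-0.09 ± 0.10), Htr1b (-0.02 ± 0.13), Htr2a (0.19 ± 0.10) and Htr2c (0.23 ± 0.19) were not called with 39 libraries, at limma adjusted p from 0.371 to 0.969. With the olfactory bulb covariate Htr2a was called higher, at 0.29 with 39 libraries and 0.33 with 37 (limma adjusted p = 0.017 and 0.0172; range over the 14 alternatives 0.017 to 0.782). Bdnf, a neurotrophin gene often studied with antidepressants, was at 0.07 ± 0.14 (limma adjusted p = 0.844), and Ntrk2, its receptor, at 0.03 ± 0.03 (limma adjusted p = 0.652). Slc6a4, the gene of the transporter that fluoxetine blocks, was not analysed here.

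Of 22 interferon stimulated genes, 2 were called higher with 39 libraries, Irf7 and Rtp4, and 0 with 37, where 0.411% and 0.718% of all genes were called higher. The call of Irf7 was lost in 31 of the 39 fits without 1 library and that of Rtp4 in 19. Irf7, a master regulator of the response, had 52.1, 70.7 and 341 normalised counts in fluoxetine mice, against 36.3, 54.7 and 95.2 in vehicle mice (lowest, median, highest), and changed by 0.72 ± 0.19 (limma adjusted p = 0.0493; 0.0673 with 37). The count depended on the fit. The test of edgeR called 7 of the 22 higher with 39 libraries and 3 with 37, array weights 17 and 17, and the fit with all 59 libraries 10 and 7. The olfactory bulb covariate gave 9 and 1, leaving out the 6 het vehicle mice 6 and 6, and quantile normalization 0 and 0. Of all genes, edgeR called 82 higher with 39 libraries and 109 with 37, array weights 2393 and 2432, and all 59 libraries 260 and 180. The covariate called 954 and 413 of all genes higher, leaving out the 6 mice 375 and 969, and quantile normalization 67 and 112. The list median was 0.39 with 39 libraries and 0.34 with 37, where 21 of 22 were higher in both genotypes. Of all 17692 genes tested with 37 libraries, 3976 were higher in both. The list mean was highest in wild-type fluoxetine female replicate 1, at 1.15, and het fluoxetine male replicate 2, at 1.02, while most fluoxetine mice overlapped the vehicle mice.

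**Figure D4:**
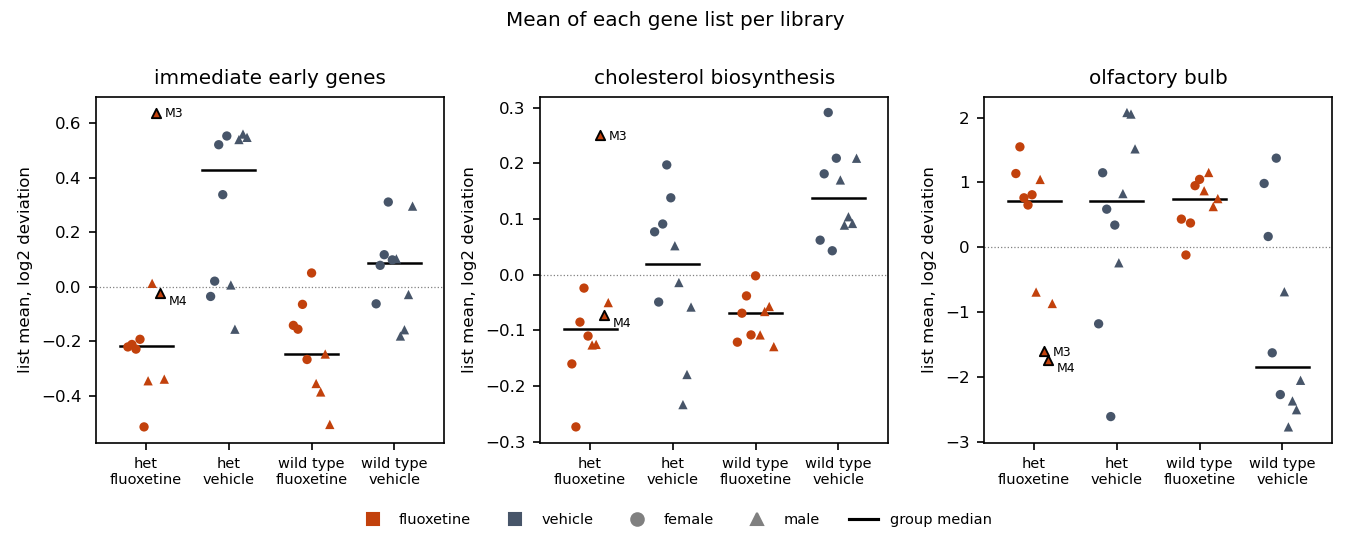
Mean of the immediate early, cholesterol and olfactory bulb lists per library, in log2 units relative to the average of all 39 libraries, for het fluoxetine, het vehicle, wild-type fluoxetine and wild-type vehicle mice (circles females, triangles males, bars group medians). Het vehicle mice split in the first panel, wild-type groups separate in the second, and the olfactory bulb list is low in most wild-type vehicle mice.

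The difference between the genotypes in the effect of fluoxetine was tested directly. With 39 libraries 0 genes were called by limma and 0 by edgeR, with 3360 at an unadjusted limma p under 0.05, and with 37 libraries 0 were called by limma, with 2888 under 0.05. Without het vehicle male replicate 1 the count was 666, and without het fluoxetine male replicate 2 it was 530. For genes described above, the het minus wild-type difference with 37 libraries was -0.13 ± 0.30 for Arc, -0.22 ± 0.18 for Nr4a3, 0.12 ± 0.08 for Stard4 and -0.03 ± 0.09 for Fkbp5.

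The effect of fluoxetine differed between the sexes for 1 gene in each fit (0.00563% with 39 libraries and 0.00565% with 37), Mettl24, which encodes a methyltransferase-like protein. In het mice it had 10.3 to 19.8 normalised counts in fluoxetine females, against 16.95 to 33.1 in vehicle females, and 22.1 to 31.2 in fluoxetine males, against 10.5 to 17.6 in vehicle males. In wild-type mice the ranges were 10.2 to 17.4 in fluoxetine females, against 18.5 to 26.5 in vehicle females, and 15.4 to 24.5 in fluoxetine males, against 13.9 to 21.5 in vehicle males. The female minus male difference of the effect was -1.17 ± 0.20 with 39 libraries (limma adjusted p = 0.0218) and -1.19 ± 0.21 with 37 (limma adjusted p = 0.0489). The call was lost in 11 of the 39 fits without 1 library. Under fluoxetine, het females were lower with overlap and wild-type females lower without overlap. Het males were higher without overlap, and wild-type males overlapped. The share of all genes without overlap was not counted for groups of a single sex.

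Within single groups of genotype and sex the number of calls changed with the deviating libraries. With 39 libraries, 5993 genes were called in het males (33.8%), 21 in het females (0.118%), 166 in wild-type males (0.935%) and 1 in wild-type females (0.00563%). With 37 libraries the counts were 39 (0.22%), 261 (1.48%), 531 (3%) and 5 (0.0283%) in the same order. Only the het male group held different libraries in both fits, and a gene's variance was estimated over all groups together. With 37 libraries Arc was at -1.06 ± 0.33 in het males, -1.31 ± 0.28 in het females, -1.53 ± 0.30 in wild-type males and -0.57 ± 0.28 in wild-type females. Stard4 was at -0.28 ± 0.08, -0.41 ± 0.07, -0.41 ± 0.08 and -0.53 ± 0.07 in these 4 groups, and Fkbp5 at 0.35 ± 0.10, 0.44 ± 0.08, 0.48 ± 0.09 and 0.38 ± 0.08.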

How the data were processed

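RNA of the prefrontal cortex of single mice was sequenced. The build GRCm38 and the tools DESeq2 1.19.11, Salmon 0.11.2 and R 3.6.0 are named, without their roles, per the submitters' processing notes. The authors deposited 1 table of normalized counts, a signal per gene and library equal to a count divided by that library's size factor. Whole counts were recovered from it for 100.0% of values within a tolerance of 0.01; for 3 libraries the step lay too close to 1 to check this. It held 18088 genes, 20 symbols with more than 1 identifier and 11 identifiers without a symbol. Depths of 24391022 to 32464242 counts (median 27551071) limit the precision of genes of low count; this covers counting error only.

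Values were analysed as log2(value + 1) for genes at 10 or more in at least 4 libraries, with limma 3.58.1 in R 4.3.3 and a trend on the mean. The pooled fit had genotype, sex and drug as terms. Effects by genotype or sex came from a fit with 8 group means. The test in both genotypes took the larger of the 2 p-values where the signs matched. Adjustment followed Benjamini and Hochberg. Tables were handled with Python 3.11.15 and pandas 2.3.3, plots with matplotlib 3.10.9. The fit was also run on simulated counts that held no deviating libraries, olfactory bulb differences or litters, so that run does not bear on these.

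Named genes were Dyrk1a, the 12 largest shared rises and 12 largest shared falls at or above the median level, the 8 smallest p in both genotypes, up to 4 called members of a list, up to 6 genes of a test of a difference, up to 4 genes that moved most without the 2 libraries, and 11 fixed genes. The other called members of the immediate early, cholesterol, glucocorticoid and MAP kinase lists were named after their values were seen. The comparison, its members and all lists were chosen with earlier results of these data known. Values of 3 members of the cholesterol list are not reported here singly. Gene coordinates are from GENCODE vM21, and promoters from RefSeq.

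The alternatives were array weights, a replicate block, 1 block per combination of genotype and sex, the olfactory bulb level as a covariate, all 59 libraries, scaling by quantiles or by TMM, a filter of 100 or none, a pseudocount of 5, edgeR 4.0.16 (quasi-likelihood) on recovered counts, and leaving out each library. Leaving out the 6 het vehicle mice numbered 3 to 5 was chosen after the data were seen.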

Additional observations from a re-analysis of the deposited data

Results flagged for a closer look

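In 124 groups of libraries, from 25 genes and 6 lists, 12 held a library far from the others by Dixon's ratio; chance gives about 1 in 20 groups. Of these, 6 were het fluoxetine male replicate 3. Its Fkbp5 level was 8496 normalised counts, and the nearest in the group 3668. Its Per1 level was 4010, next to 2688, and its Insig1 level 3720, next to 1920. Its list means, as log2 deviations, were 0.64 for immediate early genes (next 0.01), 0.25 for cholesterol genes (next -0.02) and 1.27 for glucocorticoid responsive genes (next 0.38). The results without this library and replicate 4 stand beside each of these genes and lists.

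Other libraries stood apart for single genes. Hif3a was at 475.4 in wild-type fluoxetine male replicate 4, next to 392.7 in its group. Insig1 was at 1988 in wild-type fluoxetine male replicate 2, next to 1662. Sox8 was at 1044 in wild-type fluoxetine female replicate 5, next to 870.6. Sv2c was at 1713 in het vehicle male replicate 4, next to 1382. The interferon list mean was 1.15 in wild-type fluoxetine female replicate 1, next to 0.22, and 0.46 in het vehicle male replicate 5, next to -0.07.

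The effect on Mettl24 differed between the sexes by the direct test, with a female minus male difference of -1.17 ± 0.20 on the log2 scale (limma adjusted p = 0.0218), a call lost in 11 of the 39 fits without 1 library.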

How the results depend on the processing

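Of the 55 named genes called in the pooled fit with 39 libraries, TMM factors and no filter lost 0. Array weights, the olfactory bulb covariate and all 59 libraries also lost 0. These called 5014, 1830 and 554 genes, against 169 in the main fit, so calls kept in them are a weak check. Calls lost were 2 with 1 block per combination of genotype and sex, 3 with a pseudocount of 5, 3 with edgeR (169 genes called), 9 with quantile normalization, 8 with the replicate block, 7 without the 2 males, 12 without them and with the covariate, and 10 without the 6 het vehicle mice. A filter of 100 kept the 52 it tested. Array weights called 5014 genes pooled (5164 with 37 libraries), 23 in both genotypes, 3196 between genotypes and 14 between sexes. The olfactory bulb covariate called 1830 pooled (949 with 37 libraries) and 2 in both genotypes with 39 libraries; without the 2 males the covariate gave 17 in both genotypes and 0 between sexes. All 59 libraries gave 554 pooled, 4 in both genotypes and 0 between sexes. A filter of 100 gave 8 in both genotypes and 0 between sexes. Leaving out the 2 males gave 323 pooled and 11 in both genotypes. Without the 6 het vehicle mice numbered 3 to 5, 834 were called pooled (2042 with 37 libraries), 0 in both genotypes and 0 between sexes. Why these counts moved was not tested.

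Deviations of same-numbered fluoxetine and vehicle libraries of 1 genotype and sex correlated at -0.181 to 0.235. Differently numbered libraries were not set beside them, so whether the number marks a pair or a batch was not tested. With the replicate number as a block, 160 genes were called pooled (342 with 37 libraries) and 0 in both genotypes. Leaving out 1 library at a time gave 105 to 242 genes pooled with 39 libraries, 220 to 453 with 37, 0 to 7 in both genotypes, 0 to 666 between genotypes and 0 to 1 between sexes.

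Signs turned for genes that were not called. Under array weights Dyrk1a was at -0.03, Htr2c at 0 and Bdnf at -0.17. Under the covariate Htr1b was at 0.11 and Csrnp1 at 0.05, and under edgeR Gadd45b was at 0.11 and Csrnp1 at 0.05. Without the 2 males Dyrk1a was at -0.03, Htr1b at 0.02 and Bdnf at -0.07, and with the covariate as well Dyrk1a at -0.01, Htr1a at 0.17 and Htr1b at 0.27. Without the 6 het vehicle mice Bdnf was at -0.07. With 1 library left out Htr1b ran from -0.09 to 0.02 and Bdnf from -0.01 to 0.12.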

Other observations

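Several gene groups of the cortex had few or no calls. Of all genes tested, 0.411% were called higher and 0.541% lower with 39 libraries, and 0.718% and 1.11% with 37. Of 46 genes of oxidative phosphorylation, 19 interneuron markers, 20 astrocyte markers and 18 microglial markers, 0 were called by limma in either pooled fit. Of 56 cytosolic ribosomal protein genes, Rps4x alone was called, higher with 37 libraries (0.09 ± 0.02, limma adjusted p = 0.0387) and not with 39 (0.08 ± 0.02, limma adjusted p = 0.0653). Of 29 genes of the unfolded protein and integrated stress response, Creld2, which encodes a protein of the endoplasmic reticulum, was called higher with 37 libraries (0.25 ± 0.06, limma adjusted p = 0.0084) and not with 39 (0.20 ± 0.06, limma adjusted p = 0.1). Of 34 potassium and sodium channel genes, Kcnj3, a G protein-gated potassium channel gene, was called lower with 37 libraries (-0.12 ± 0.03, limma adjusted p = 0.0408) and not with 39 (-0.21 ± 0.07, limma adjusted p = 0.125).

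Of 16 complement and antigen presentation genes, C4b, a complement component gene, was called higher with 39 libraries, where 0.411% of all genes were. It had 321, 533 and 1010 normalised counts in fluoxetine mice, against 264, 368 and 715 in vehicle mice (lowest, median, highest), with wide overlap. The change was 0.48 ± 0.12 with 39 libraries (limma adjusted p = 0.0389), a call lost in 21 of the 39 fits without 1 library, and 0.43 ± 0.12 with 37 (limma adjusted p = 0.0586).

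C1ql2, which encodes a secreted synaptic protein, and Gm16310, a predicted gene, were called in both fits at low levels. C1ql2 was at 212.6 and 102.5 normalised counts in het fluoxetine male replicates 3 and 4 and at 5.42 to 28.5 in the other 17 fluoxetine mice, against 0.97 to 16.5 in vehicle mice. Its change was 1.17 ± 0.30 with 39 libraries (limma adjusted p = 0.0476), a call lost in 25 of the 39 fits without 1 library, and 0.82 ± 0.22 with 37 (limma adjusted p = 0.0442). Gm16310 was at 16.7 and 19.3 normalised counts in the same 2 males and at 0 to 7.02 in the other 17 fluoxetine mice, against 5.11 to 13.4 in vehicle mice. Its change was -1.17 ± 0.30 with 39 libraries (limma adjusted p = 0.0415), a call lost in 21 of those fits, and -1.45 ± 0.26 with 37 (limma adjusted p = 0.000857).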
